A study of Mus musculus with 12 samples.

Results

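The genes described here are those of MHC class II antigen presentation in the epithelium of the mouse duodenum, measured as occupancy by RNA polymerase II (Pol II) in chromatin immunoprecipitation sequencing (ChIP-seq). They were chosen by name, as 8 listed genes (Ciita, Cd74, H2-Aa, H2-Ab1, H2-Eb1, H2-DMa, H2-DMb1 and H2-DMb2). Of these, 6 were among the 6429 genes of both tables of comparisons deposited by the authors. H2-DMb1 and H2-DMb2 were not in those tables, and their Pol II signal was not analysed here. All 8 genes had windows in the count files, 16 promoter windows and 16 gene body windows in all.

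The samples were Pol II libraries of wild-type (WT) villus, of WT crypt, and of villus from mice whose genotype is given as a double knockout (DKO) of HNF4 alpha and gamma, with 3 libraries in each group. WT mice received the oil vehicle, and DKO mice received tamoxifen at 50 mg/kg per day for 2 days and were killed 1 day after the last injection. Epithelium was freed with EDTA for 35 minutes from WT tissue and 25 minutes from mutant tissue, and crypts were parted from villi on a 70 µm filter. Genotype, tamoxifen and EDTA time therefore cannot be told apart between the WT and DKO groups. The Cre driver, the deleted exons, the strain and the age were not given in the sources used here. Stem cells and their dividing progeny sit in the crypts, and the villi are covered mostly by absorptive enterocytes.

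MHC class II molecules are pairs of an alpha and a beta chain that show peptides from endosomes to CD4+ T cells. The invariant chain, encoded by Cd74, guides them from the endoplasmic reticulum to endosomes, where the H2-DM molecule exchanges a fragment of the invariant chain for other peptides. The coactivator CIITA switches these genes on by joining factors that are already bound at a conserved promoter module, with RFX at the X box and NF-Y at the Y box. Dendritic cells, macrophages and B cells carry class II at all times, and enterocytes of the small intestine also carry it, with interferon gamma as the best known inducer through CIITA.

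Promoter sequences are shown for H2-Aa and H2-Eb1, which differed between the groups, for H2-DMa, which did not pass the test, and for H2-DMb1, its partner gene. RefSeq promoter sequences (build GRCm38.p6, from 250 bases before to 50 bases after a start) were matched for 5 of the 8 genes, H2-Aa, H2-Eb1, H2-DMa, H2-DMb1 and H2-DMb2, and not for H2-Ab1, Cd74 and Ciita. Capitals mark GNAAC, an X box core in which N is any base, and GATTGG, the Y box, in the first 3 sequences. In the last, from the upstream H2-DMa start, they mark the reverse complement of GCAAC. All are written 5′ to 3′ along the gene.
H2-Aa, chr17:34287852-34287929, minus strand: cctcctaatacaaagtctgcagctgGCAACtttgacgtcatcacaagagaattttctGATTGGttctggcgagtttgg
H2-Eb1, chr17:34305751-34305827, plus strand: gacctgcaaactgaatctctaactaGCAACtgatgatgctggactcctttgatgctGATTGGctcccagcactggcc
H2-DMb1, chr17:34153072-34153149, plus strand: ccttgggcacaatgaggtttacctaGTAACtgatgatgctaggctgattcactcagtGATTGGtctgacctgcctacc
H2-DMa, chr17:34122732-34122831, plus strand: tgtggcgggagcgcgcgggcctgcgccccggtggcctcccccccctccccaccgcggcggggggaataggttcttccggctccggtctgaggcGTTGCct

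GCAAC stood 32 bases before GATTGG in H2-Aa and 31 bases before it in H2-Eb1, counted between the first bases of the motifs. H2-DMb1 held GTAAC at the same distance of 32 bases. The Y box began 49 bases before the start in H2-Aa and 60 bases before it in H2-Eb1. Searched on both strands, GCAAC was in 35.2% of 32851 promoters of the same length and GATTGG in 16.1%. The 2 motifs in this order on the same strand, with starts 20 to 40 bases apart, were in 0.365%, and in 1.21% with GNAAC in place of GCAAC. Neither matched H2-DMa promoter held such a pair in either form, nor did the H2-DMb2 promoter. GATTGG itself was in the H2-DMb2 promoter and in the downstream H2-DMa promoter, but not in the upstream H2-DMa promoter. H2-Aa also held TGACGTCA, a full cyclic AMP response element at the place of the X2 box (1.79% of promoters), and CAAAGTC (4.44%), the first letters of a motif that HNF4 is known to bind. These motifs do not overlap each other. Only the first letters of the HNF4 motif were searched for, and in H2-Aa the letters TG follow them. A full HNF4 motif is therefore not shown. A match is a description of letters and does not show that a factor binds there.

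Pol II values come from the authors' deposited tables in the DESeq2 format, which give the mean signal over all libraries, in counts divided by size factors, and log2 fold changes with standard errors (SE, after ±). They give no values per library, so group means were rebuilt from the mean and the 2 fold changes, taking groups of equal size. A gene was called when its DESeq2 p-value, adjusted over all 6429 genes, was under 0.05. Positive values mean more signal in WT villus, as the tables are named. With these signs the inverse group means explained 90.1% of the difference between the squared SEs of the 2 tables, and 51.6% or less with any sign reversed. The targeted genes had more Pol II signal in the villi labelled DKO in the authors' deposited table, at -0.54 ± 0.14 for Hnf4a and -1.45 ± 0.22 for Hnf4g. Without the position of the deletion this does not check the labels, and the group is called labelled-DKO here. Of 13 enterocyte markers 12 were tested, and the authors' deposited tables called each of the 12 higher in WT villus against crypt and against labelled-DKO villus, with median log2 fold changes of 1.60 and 2.23.

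Pol II at the class II chain genes and at the invariant chain was highest in WT villus, lower in WT crypt and lowest in labelled-DKO villus by the rebuilt group means, with labelled-DKO villus called below crypt at H2-Ab1 and H2-Aa only. From WT villus to labelled-DKO villus H2-Ab1 differed 4.74-fold and H2-Aa 3.61-fold, while H2-DMa, which encodes the alpha chain of the peptide exchanger, was not called in either table. Ciita, the gene of the coactivator, differed 1.27-fold between the genotypes, less than the chain genes and Cd74. In WT villus against labelled-DKO villus 5 of the 6 genes tested were called, all higher in WT villus. Of all genes 51.9% were called there, 22.4% higher and 29.5% lower in WT villus. In WT villus against WT crypt 4 of the 6 were called, all higher in villus. Of all genes 37.4% were called there, 18.6% higher and 18.8% lower in villus. The medians of the 6 genes were 1.16 and 0.64, beside -0.08 and -0.04 over all genes. Of 11 crypt and proliferation markers 4 were tested (Axin2, Myc, Ccnd1 and Pcna). The authors' deposited tables called all 4 lower in WT villus than in crypt, with a median of -0.75, and 3 of them, without Axin2, lower in WT than in labelled-DKO villus, with a median of -0.65. Their summed rebuilt signal was 382 in WT villus, 602 in WT crypt and 551 in labelled-DKO villus, and its part in the class II differences was not tested. In bulk samples a change in the mix of cells and a change in Pol II per cell cannot be told apart.

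**Figure D1:**
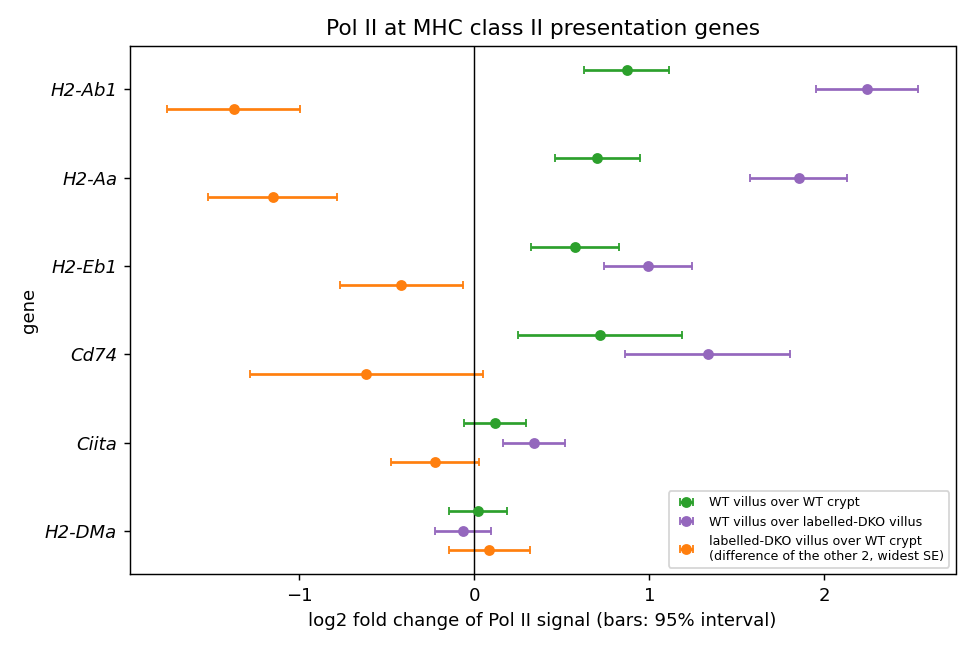
Log2 fold change of Pol II signal (x axis) for each of the 6 tested genes (y axis), with points for the estimates and bars for 95% intervals. Green points compare WT villus with WT crypt, purple points WT villus with labelled-DKO villus, and orange points labelled-DKO villus with WT crypt. H2-Ab1 and H2-Aa are farthest from 0 in the purple and orange comparisons, and all 3 intervals of H2-DMa include 0.

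H2-Ab1 and H2-Aa encode the beta and alpha chains of the same class II molecule, I-A. Rebuilt mean signal at H2-Ab1 was 120 normalised counts in WT villus, 65.5 in WT crypt and 25.3 in labelled-DKO villus. At H2-Aa it was 94.7, 58.2 and 26.2 in the same order. Both genes thus ranked villus over crypt over labelled-DKO villus. In the authors' deposited table of WT against labelled-DKO villus, H2-Ab1 had a log2 fold change of 2.24 ± 0.15 with a DESeq2 adjusted p of 1.40e-49, the 61st highest of the 6429 genes. H2-Aa had 1.85 ± 0.14 with an adjusted p of 2.20e-37 in that authors' deposited table. Between villus and crypt the authors' deposited table gave 0.87 ± 0.12 (adjusted p 7.53e-11) for H2-Ab1 and 0.70 ± 0.12 (adjusted p 2.15e-07) for H2-Aa. The chains did not differ from each other beyond their errors. With an SE as wide as any correlation of the errors allows, the difference of H2-Ab1 minus H2-Aa was 0.39, with a 95% interval from -0.18 to 0.96, between the genotypes and 0.17, from -0.32 to 0.66, between villus and crypt.

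H2-Eb1 encodes the beta chain of the other class II molecule, I-E. Its rebuilt mean signal was 139 in WT villus, 93.2 in WT crypt and 69.8 in labelled-DKO villus. In the authors' deposited tables its log2 fold change was 0.99 ± 0.13 (DESeq2 adjusted p 1.09e-13) for WT over labelled-DKO villus and 0.58 ± 0.13 (adjusted p 4.75e-05) for villus over crypt. Between the genotypes it was smaller than that of H2-Ab1 by 1.25 (0.71 to 1.79) and than that of H2-Aa by 0.86 (0.33 to 1.39), with the same wide intervals. Between villus and crypt these differences were 0.30 (-0.20 to 0.79) and 0.13 (-0.36 to 0.62), so the chain genes were not told apart there.

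Cd74 had a rebuilt mean signal of 188 in WT villus, 115 in WT crypt and 74.7 in labelled-DKO villus, the same order as the chain genes. The authors' deposited tables gave 1.33 ± 0.24 (DESeq2 adjusted p 2.05e-07) for WT over labelled-DKO villus and 0.72 ± 0.24 (adjusted p 0.0101) for villus over crypt. Its SE was the largest of the 6 genes, and at a threshold of 0.01 it was not called between villus and crypt. Cd74 differed between the genotypes by less than H2-Ab1, by 0.91 (0.15 to 1.67), and was not told apart from H2-Aa or H2-Eb1.

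Ciita had rebuilt means of 267, 247 and 211 in WT villus, WT crypt and labelled-DKO villus. The authors' deposited table called it between the genotypes, at 0.34 ± 0.090 with a DESeq2 adjusted p of 5.04e-04, which is 1.27-fold. Between villus and crypt the authors' deposited table gave 0.12 ± 0.090 with an adjusted p of 0.320, and its 95% interval of fold change ran from 0.96 to 1.23. The change between the genotypes was below that of each chain gene and of Cd74. The nearest was H2-Eb1, larger by 0.65 (0.22 to 1.08), and the farthest was H2-Ab1, larger by 1.90 (1.44 to 2.37). The 5 Ciita transcripts in the count files start in 3 promoter windows on chromosome 16, whose first bases lie at 10480065, 10488171 and 10489774 in the authors' mm9 coordinates. Ciita is known to use separate promoters in dendritic cells, in B cells and in cells that respond to interferon gamma. The tables hold 1 value for the gene, so the promoters could not be read apart.

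H2-DMa had rebuilt means of 142, 140 and 149 in WT villus, WT crypt and labelled-DKO villus. The authors' deposited tables gave -0.064 ± 0.082 (DESeq2 adjusted p 0.527) for WT over labelled-DKO villus and 0.022 ± 0.085 (adjusted p 0.868) for villus over crypt. The 95% intervals of fold change were 0.86 to 1.07 and 0.91 to 1.14. Its change between the genotypes was below that of each of the other 5 genes by intervals that did not include 0. The H2-DMa windows ran from 34259677 to 34275546 on chromosome 17 (mm9) and overlapped those of Brd2. Brd2 lies on the other strand, with the 5′ edge of its windows at 34259902. The overlap thus lies within the upstream H2-DMa promoter window, which ends at 34260078. The headers of the count files record no option for strand, so reads of H2-DMa and Brd2 cannot be told apart where they overlap. Brd2 itself was at -0.058 ± 0.21 and 0.29 ± 0.21 in the authors' deposited tables, not called in either. In the count files the windows of H2-Aa, H2-Ab1, H2-Eb1 and Ciita overlapped no other gene, and those of Cd74 overlapped the microRNA gene Mir5107 on the same strand.

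**Figure D2:**
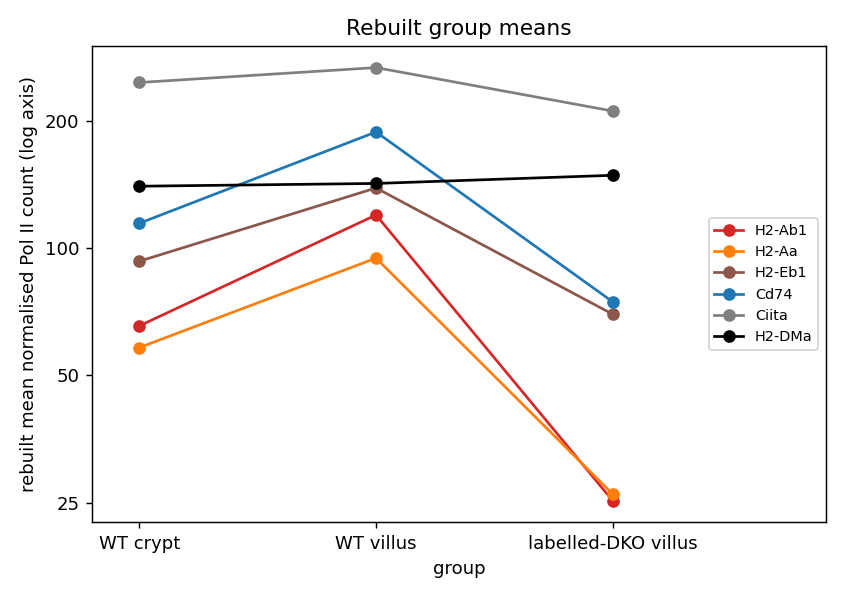
Mean Pol II signal rebuilt for each group (y axis, normalised counts on a log axis) in WT crypt, WT villus and labelled-DKO villus (x axis), with 1 line for each gene. H2-Ab1 and H2-Aa end at 25.3 and 26.2 in labelled-DKO villus, below their crypt means, while H2-DMa stays between 140 and 149. The points carry no error, since the tables give none for a group mean.

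Whether Pol II in labelled-DKO villus came to the level of crypt or passed below it was read by subtracting the second deposited log2 fold change from the first. The SE of this difference was set to the largest value that it can have when both comparisons share the WT villus libraries. H2-Ab1 was lower in labelled-DKO villus than in WT crypt by 2.59-fold, at -1.37 ± 0.19 with a Benjamini-Hochberg adjusted p of 1.70e-10 over all genes (normal test). H2-Aa was lower by 2.22-fold, at -1.15 ± 0.19 with an adjusted p of 6.98e-08. These 2 of 6 genes were called lower, and none was called higher. Of all genes 13.6% were called, 7.19% lower and 6.41% higher in labelled-DKO villus. Cd74 at -0.62 ± 0.34 (adjusted p 0.251), H2-Eb1 at -0.42 ± 0.18 (0.109) and Ciita at -0.22 ± 0.13 (0.270) were not called, nor was H2-DMa at 0.086 ± 0.12 (0.748). With the larger of the 2 deposited SEs in place of the widest, all of these but H2-DMa were called lower, so 5 of 6 in place of 2. That SE is smaller for every gene, and the share of all genes called with it is not given here. The 5 of 6 therefore has no background beside it. Among the enterocyte markers 2 of 12 were called lower than crypt, Apoa4 and Mttp, and 2 were called higher, Fabp1 and Krt20.

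Of 13 listed genes for factors of the promoter module and their partners, 10 were tested. In WT villus against labelled-DKO villus 2 were called higher and 3 lower, near the shares of 22.4% and 29.5% over all genes. Between villus and crypt 1 was called higher and 3 lower, where 37.4% of all genes were called. The medians were -0.10 and -0.22 in the authors' deposited tables. Irf1, an interferon-induced activator of Ciita, was called higher in WT villus in both authors' deposited tables, at 0.66 ± 0.17 against labelled-DKO villus (DESeq2 adjusted p 2.56e-04) and 0.95 ± 0.17 against crypt (adjusted p 2.59e-07). Irf8, an interferon regulatory factor best known from blood cells, was at 1.04 ± 0.25 (adjusted p 1.81e-04) and 0.16 ± 0.25 (adjusted p 0.662) in the authors' deposited tables. The acetyltransferase genes Crebbp, at -0.39 ± 0.080 in both, and Ep300, at -0.36 ± 0.083 between the genotypes, had less signal in WT villus than in labelled-DKO villus in the authors' deposited tables. Rfxap and Rfxank, 2 of the RFX subunits, were called in neither table. Of the NF-Y genes, Nfya, at -0.27 ± 0.10, and Nfyc, at -0.31 ± 0.12, were called between villus and crypt alone, lower in villus. Nfyb was called between the genotypes alone, lower in WT villus at -0.29 ± 0.10, in the authors' deposited table.

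Of 20 listed genes of interferon gamma signalling 10 were tested. Against labelled-DKO villus 3 were called higher and 2 lower in WT villus, beside 22.4% and 29.5% of all genes. Against crypt 4 were called higher and 1 lower, beside 18.6% and 18.8%. The medians were 0.14 and 0.16. Ifngr2, a receptor chain for interferon gamma, was at 0.79 ± 0.11 (DESeq2 adjusted p 1.77e-12) between the genotypes and, against crypt, at 0.55 ± 0.11 (adjusted p 3.64e-06) in the authors' deposited tables. The kinase gene Jak2, which acts below this receptor, was called higher in WT villus in both, at 0.42 ± 0.078 and 0.34 ± 0.079. Socs3, a feedback inhibitor of cytokine signalling, was at 0.68 ± 0.24 and 1.30 ± 0.24 in the authors' deposited tables. The interferon-induced GTPase genes Igtp and Irgm2 were called in neither of the authors' deposited tables. Socs1 was called between villus and crypt alone, at 0.67 ± 0.24, and Ptpn2, a phosphatase that acts on JAK proteins, was lower in WT villus in both, at -0.35 ± 0.095 and -0.50 ± 0.096.

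Of 15 listed genes that prepare peptides in endosomes 7 were tested. In WT villus against labelled-DKO villus 1 was called higher and 2 lower, near the shares of 22.4% and 29.5% over all genes. The protease genes Ctsd, at -0.61 ± 0.23, and Ctsb, at -0.40 ± 0.16, had more signal in labelled-DKO villus, and Ctsz, also a protease gene, had less, at 0.46 ± 0.13, in the authors' deposited table. Ifi30, the thiol reductase that opens disulfide bonds of antigens, was called between villus and crypt alone, at 0.32 ± 0.11 and a DESeq2 adjusted p-value of 0.00851 in that authors' deposited table. It was the single gene of this list called between labelled-DKO villus and crypt, higher in the former at 0.42 ± 0.14 (Benjamini-Hochberg adjusted p 0.0317). The windows of Ctsb and Ctsz overlap those of a neighbouring gene.

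**Figure D3:**
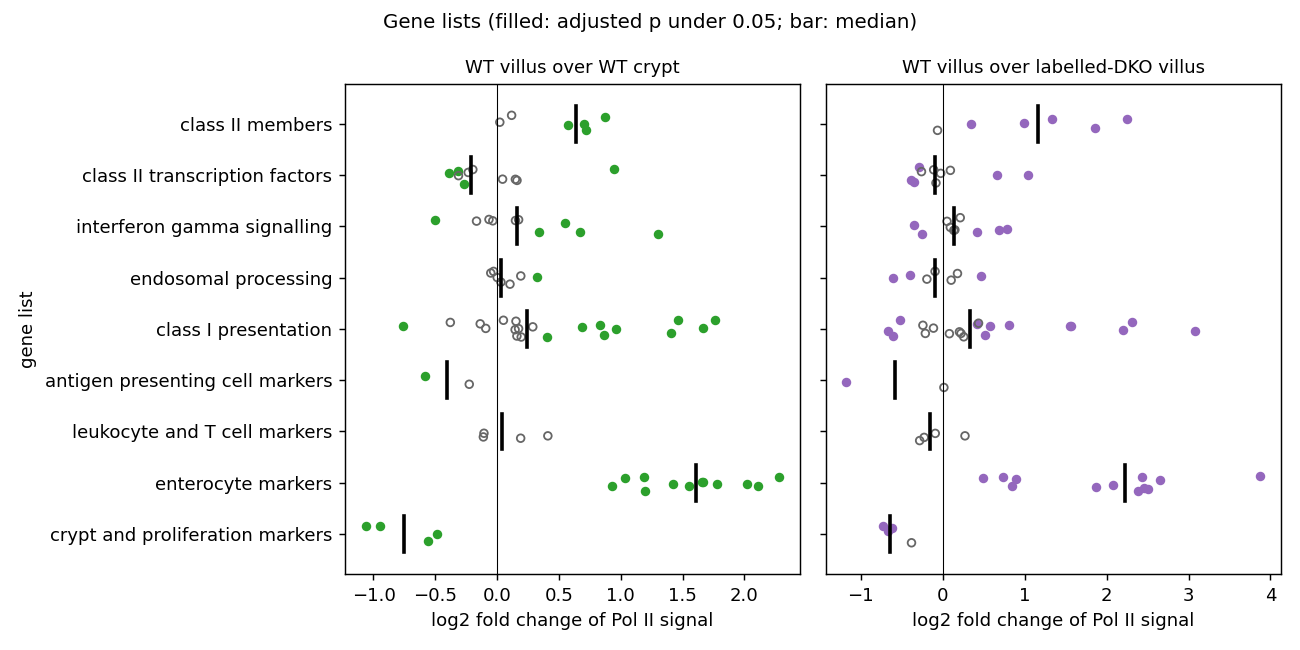
Log2 fold changes of Pol II signal (x axes) for the tested genes of each list (y axis), on the left for WT villus over WT crypt and on the right for WT villus over labelled-DKO villus. Filled points passed an adjusted p of 0.05, open points did not, and bars mark medians. The class II medians of 0.64 and 1.16 lie below the enterocyte medians of 1.60 and 2.23 and above those of the other lists plotted.

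Markers of other cells that carry class II were mostly outside the tables. Of 20 markers of macrophages, dendritic cells and B cells, 2 were among the genes tested, Cd68 and Fcer1g. Itgax, Csf1r, Adgre1, Lyz2, Cd79a and Ms4a1 were not among them, and neither was Ptprc, the leukocyte common antigen. Cd68, a lysosomal protein of macrophages, moved opposite to the class II genes in the authors' deposited tables, at -1.18 ± 0.23 (DESeq2 adjusted p 1.22e-06) between the genotypes and -0.58 ± 0.23 (adjusted p 0.0328) between villus and crypt. Its windows overlap those of Eif4a1 on the same strand. Fcer1g was called in neither of the authors' deposited tables, at 0.014 ± 0.13 between the genotypes and -0.23 ± 0.13 between villus and crypt. Rebuilt signal of Cd68 alone was 157 in WT villus, 234 in WT crypt and 354 in labelled-DKO villus. Summed with Fcer1g it was 252, 346 and 449 in the same order, so the rise in the sum from WT villus to labelled-DKO villus was that of Cd68. Of 17 leukocyte and T cell markers 4 were tested (Gzma, Gzmb, Coro1a and Cd52), and none was called in either of the authors' deposited tables, where DESeq2 gave unadjusted p-values of 0.05 or more for each. Their summed rebuilt signal was 356, 307 and 351 in the same order. The part of antigen presenting cells in the class II signal was not tested, since 18 of their 20 markers were not among the genes tested.

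Class I genes, which present peptides to CD8+ T cells, were compared as the most similar group. Of 25 listed 20 were tested, and 9 were called higher and 3 lower in WT than in labelled-DKO villus, with a median of 0.34, beside 22.4% and 29.5% of all genes. Between villus and crypt 9 were called higher and 1 lower, with a median of 0.24, beside 18.6% and 18.8%. The chain genes H2-K1, at 3.08 ± 0.21, and H2-T23, at 1.56 ± 0.16, passed with more signal in WT villus between the genotypes in the authors' deposited table. Between labelled-DKO villus and crypt 4 of the 20 were called lower (H2-K1, at -1.32 ± 0.29, H2-T23, at -0.72 ± 0.23, H2-Q2 and B2m), none was called higher and 16 were not called, beside 7.19% lower and 6.41% higher of all genes. The chain genes H2-D1, at 0.65 ± 0.27, and H2-Q4, at 0.29 ± 0.21, were among the 16. Tap1, Tap2, Psmb8 and Psmb9, which serve class I and lie within the class II region, were called in neither of the authors' deposited tables, at -0.21 to 0.20 between the genotypes.

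The position of the genes was then set beside their values. On chromosome 17, 11 other tested genes had windows within 100000 bases of a listed gene. Between the genotypes 2 had more signal in WT villus and were called (Btnl1 and Btnl2) and 1 lower (H2-Ke6), and between villus and crypt Btnl1 and Btnl2 were called higher and none lower. Over all genes the shares called higher and lower were 22.4% and 29.5% between the genotypes, and 18.6% and 18.8% between villus and crypt. The 2 of 11 are near the share called higher in each comparison. Of 5 other listed genes of the class II region Btnl2 alone was tested. Both genes lie on the far side of H2-Eb1 from H2-Aa and encode butyrophilin-like proteins, which belong to the immunoglobulin superfamily. Btnl1 had a log2 fold change of 2.09 ± 0.22 between the genotypes and 0.78 ± 0.22 between villus and crypt, and Btnl2 had 1.25 ± 0.12 and 0.54 ± 0.11, in the authors' deposited tables. Tap1, Tap2, Psmb8 and Psmb9, on the other side of H2-Ab1, at -75.7 to -58.7 kb from it, were not called. H2-K1 lies farther on that side, beyond H2-DMa and outside the limit of 100000 bases. Beside Ciita, Dexi was called higher in WT villus in both authors' deposited tables, at 0.45 ± 0.11 and 0.31 ± 0.11. Beside Cd74, Ndst1 was at 0.50 ± 0.098 and 0.17 ± 0.098 and the ribosomal protein gene Rps14 at -0.53 ± 0.13 and -0.47 ± 0.13 in the authors' deposited tables.

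**Figure D4:**
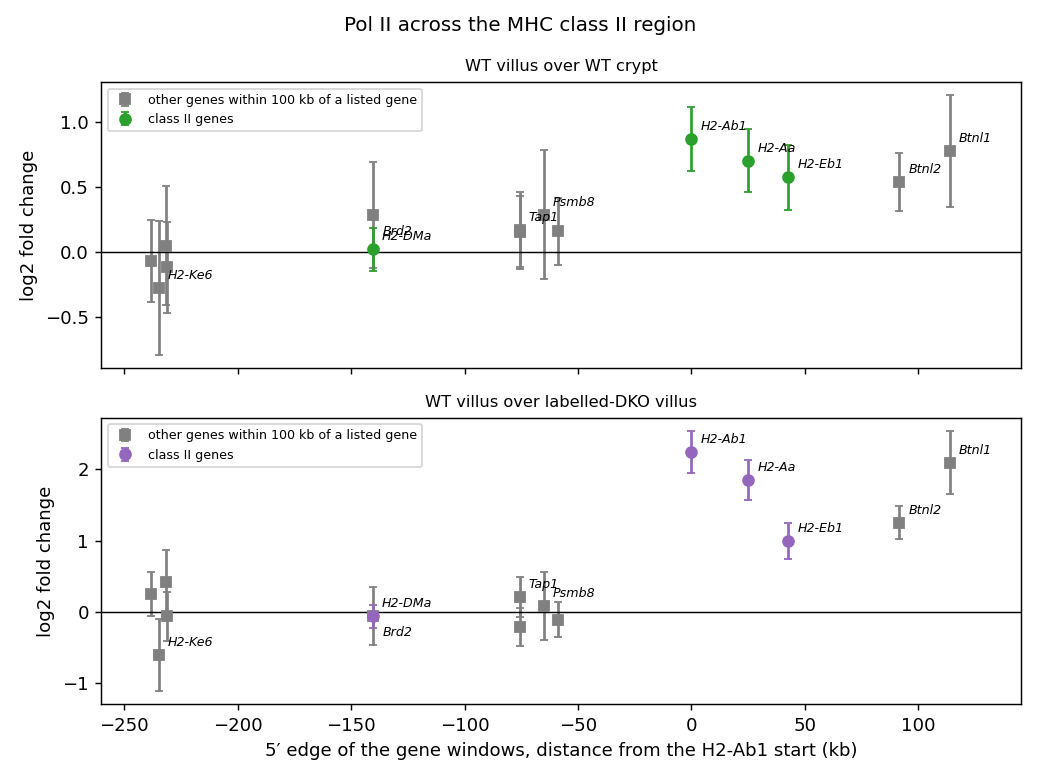
Log2 fold change of Pol II signal (y axes, bars 95% intervals) against the distance of each gene from H2-Ab1 (x axis, kb) on chromosome 17, above for WT villus over WT crypt and below for WT villus over labelled-DKO villus. Coloured circles are class II genes and grey squares the 11 other tested genes within 100 kb of a listed gene. H2-Ab1, H2-Aa, H2-Eb1, Btnl2 and Btnl1 lie above 0 in both panels, and H2-DMa at the left lies near 0.

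Genes with the pattern nearest to the class II genes were found by the distance between pairs of log2 fold changes, over the 2 comparisons, among genes whose mean signal was no lower than the median gene's. Nearest to Ciita, the tested gene with the highest mean signal, were Numb, Lypla1, Lnx1, Ap2a2 and Dqx1, at distances of 0.020 to 0.035. H2-Ab1 was added to this search after its values were seen. The nearest genes to it were Vmo1, Igsf9, Cda, Gpr108 and Slc6a20a, at distances of 0.11 to 0.15. Outside the listed genes, 30 tested genes had a promoter with GCAAC 20 to 40 bases before GATTGG. Of these 6 were called higher and 11 lower in WT than in labelled-DKO villus, beside 22.0% and 29.8% of the 5161 tested genes with a promoter in the RefSeq table. Their median between the genotypes was -0.19, beside -0.09. In villus against crypt 4 of the 30 were called higher and 11 lower, beside 18.4% and 19.1% of the 5161 genes. Their median there was -0.0040, beside -0.047. These values were not tested against each other.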

How the data were processed

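Pol II ChIP-seq of 9 libraries, with 3 input libraries, gave the deposited values. For the authors' steps, the submitters' processing notes list mm9, Bowtie2 2.2.6, Picard and DESeq2 1.36.0, with no role or order. Per the file headers, the authors' 2 tables are DESeq2 results for 6429 genes: a mean signal in normalised counts, a log2 fold change with its SE, a Wald score, and a p-value with its adjusted p-value. The window counted, filter and shrinkage were not given in the sources used here. Per the file headers, window counts were made with featureCounts 2.0.3 on read pairs of mapping quality 30 or more, with pairs assigned to every window they overlap. The 18 columns of counts per library carry no names and match no sample, so they were not used and depth per library is not known here. Window positions were used, with transcripts matched to symbols through RefSeq (GRCm38.p6, names only).

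From these values the third comparison, group means, 95% intervals and differences between genes were computed with numpy 2.4.6, pandas 2.3.3 and scipy 1.17.1. The third comparison was tested on simulated data. Genes named besides the listed ones are at most 4 called genes per list with the largest change, at most 6 neighbours within 100000 bases, and the 5 nearest in pattern. Others named (Jak2, Igtp, Irgm2, Rfxap, Rfxank, the NF-Y genes, Brd2, Fcer1g, Fabp1, Krt20, B2m, H2-D1, H2-Q2, H2-Q4, the crypt markers, the Tap and Psmb genes, the leukocyte genes and those near H2-Ab1 in pattern) and the motifs were chosen after values or sequences were seen. Some members of the lists are not reported here. The members and lists were chosen with earlier results of these data known. The labels do not say whether libraries came from separate animals, so p-values measure the spread between libraries.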

Additional observations from a re-analysis of the deposited data

How the results depend on the processing

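The counts of the 6 genes moved mainly with the size of change required. Shares of all genes under the changed settings are not given here. A fall in these counts is therefore no result about the 6 genes alone. Between villus and crypt 4 genes were called, but 0 in a test against log2 changes of 0.5 or less, where H2-Ab1 came nearest with an adjusted p of 0.0695, and 0 with a change beyond 1. With a mean signal of at least 100, a setting added after seeing the data that leaves 4 of the 6 genes, 2 were called. Between WT and labelled-DKO villus 5 were called, and 4 of these, without Ciita, in the test against 0.5 or less. There were 3 with a change beyond 1 (H2-Eb1 lay just inside, at 0.99) and 3 with the mean signal limit. Between labelled-DKO villus and crypt 2 were called, and 0 with the mean signal limit, which leaves out H2-Aa and H2-Ab1. With the larger of the 2 deposited SEs, which is no upper bound, 5 were called, and the share of all genes is not given here. Centring on the median of all genes changed none of these counts. No gene called in the report reversed under these settings. No paired analysis was possible because these comparisons hold no library values and the unnamed count columns show no replicate. This also kept the planned fits of window counts, their filters and the omission of single replicates from being run, and whether 1 library decides a value is not known. Low signal limits H2-Aa and H2-Ab1, at 59.7 and 70.2 mean normalised counts.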
